A study of Mus musculus with 6 samples.

Results

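Heterotrimeric G proteins carry signals from receptors in the plasma membrane to enzymes and channels inside the cell. A set of 10 subunit genes was followed here in mouse hearts that lack Arrdc4, an alpha-arrestin, and in hearts that have it. It holds all 5 genes for beta subunits (Gnb1, Gnb2, Gnb3, Gnb4 and Gnb5) and 5 genes for alpha subunits (Gnas, Gnai2, Gnai3, Gnaq and Gna11), 10 of the 49315 genes in the table. Gnb3 was selected on its lower values in the knockout hearts of this same comparison, so its own difference is given as a description and is not tested. The other 9 were taken as its family and as the alpha subunits it can pair with.

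An inactive G protein is an alpha subunit holding GDP together with a tightly joined beta-gamma pair. An activated receptor makes the alpha subunit exchange GDP for GTP, after which the alpha subunit and the beta-gamma pair each act on targets of their own. In the heart, Gs downstream of beta-adrenergic receptors raises cyclic AMP, Gi downstream of muscarinic receptors lowers it while freed beta-gamma opens potassium channels that slow the beat, and Gq and G11 downstream of angiotensin and endothelin receptors activate phospholipase C beta.

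The 6 hearts came from mice of C57BL/6 background, 3 carrying an Arrdc4 knock-out made with CRISPR-Cas9 (KO) and 3 wild type (WT). Each heart gave 1 RNA sequencing library, and the deposited values are read counts per gene. Age, sex, litter and the number of founder lines are not stated in the labels, so the p-values measure only the spread between these 6 samples. The libraries held 29974501 to 41036626 counts. Arrdc4 itself had 5, 1 and 2 counts in KO replicates 1 to 3, against 349, 307 and 281 counts in WT replicates 1 to 3. Markers of heart muscle were abundant in every library: Myh6, Tnnt2, Actn2, Ryr2 and Pln summed to between 27422 and 45904 CPM, the count scaled to a common library size. Of 6 atrial markers, Sln and Bmp10 were at or near 0 in all 6 hearts, at 0.172 CPM or less. Together with Myl4, Myl7, Nppa and Dkk3 they summed to between 62.0 and 129.7 CPM. Almost all of these reads were thus of the latter genes, and whether atrial tissue was sampled was not tested.

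Not all libraries grouped by genotype. Y-linked transcripts (Ddx3y, Uty, Kdm5d and Eif2s3y together) were present in KO replicate 1 and in WT replicates 1 and 2, at 146 to 158 CPM, and were at 1.19 to 2.24 CPM in KO replicates 2 and 3 and WT replicate 3. Genotype and the presence of Y-linked reads were therefore unevenly matched, with 1 of 3 KO hearts and 2 of 3 WT hearts holding such reads. KO replicate 2 and WT replicate 3 also lay together and apart from the other 4 on the first principal component, which took 58.9% of the variance. Values without these 2 libraries are given below for the subunit genes, in part as a range, and for some other genes, not all of those that moved.

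The beta genes are close in sequence, and reads of one could in part match another. Gnb1, Gnb2, Gnb3 and Gnb4 each have a coding sequence of 1023 bases. Gnb3 was identical to Gnb2 at 76.3% of aligned coding positions in GENCODE M21, to Gnb1 at 76.0% and to Gnb4 at 72.4%, and to the longer Gnb5 (1188 bases) at 53.0%. The longest stretch without a difference that Gnb3 shared with any of them was 32 bases, with Gnb2. How the authors counted a read that matches more than 1 gene is not known from the sources used here. Gnaq and Gna11 shared a stretch of up to 38 bases and were identical at 80.5% of aligned coding positions.

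None of the 9 genes taken as family and partners passed the test in knockout hearts. All 10 genes had enough counts to enter the fit, and edgeR's quasi-likelihood test with Benjamini-Hochberg adjustment over 14508 genes called 0 of these 9 at an adjusted p under 0.05. Across all genes tested, 0.00689% were called, which is Arrdc4 alone. Without KO replicate 3 no gene was called, Arrdc4 included. At an unadjusted p under 0.05 edgeR counted 0 of the 9, against 1.23% of all genes tested. DESeq2 and limma-voom likewise called 0 of the 9, with 0 under 0.05 unadjusted in each. In 3 of the 9 genes the 3 KO values lay wholly above the 3 WT values. Over all genes tested, 4.07% showed such a separation in either direction and 2.18% one with KO above. Gnb3, whose KO values lay below the WT values, is left out of these counts because it was selected on that difference.

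**Figure D1:**
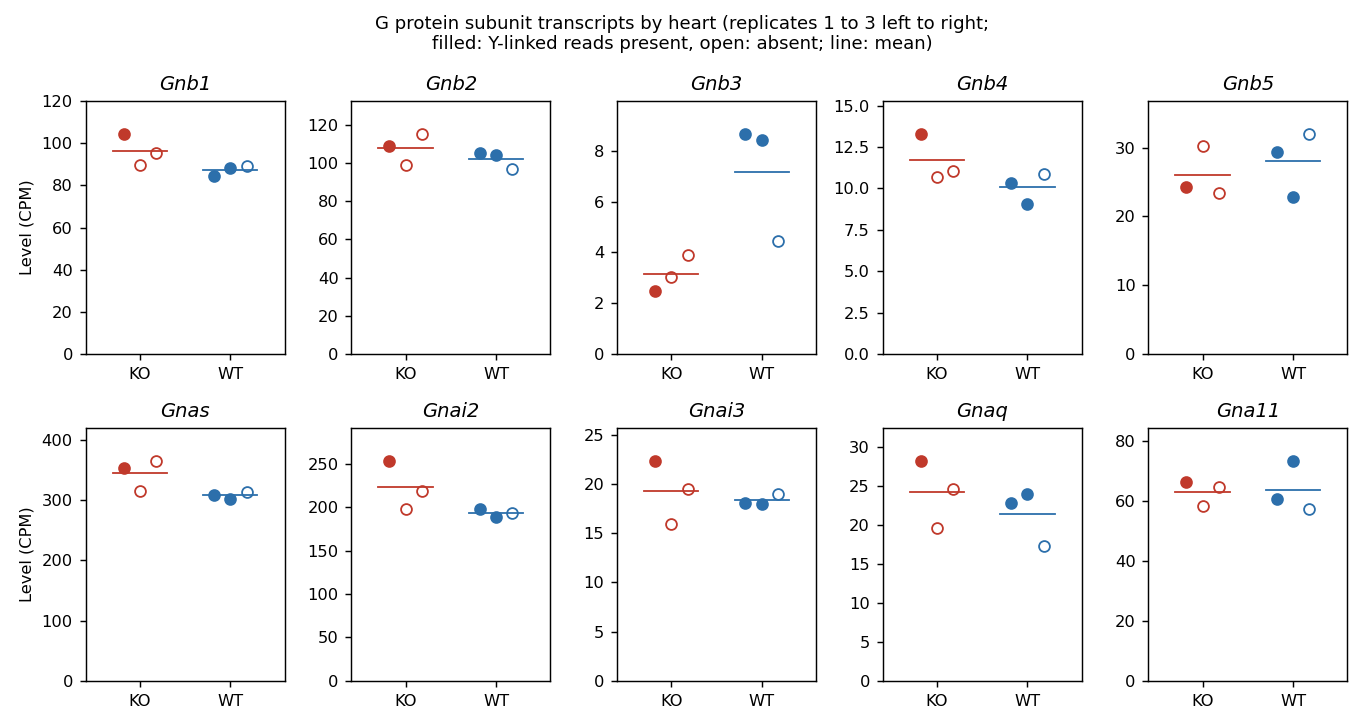
Level of each of the 10 genes (CPM, vertical axis from 0, a scale of its own for each gene) in the 3 KO hearts (red, left) and the 3 WT hearts (blue, right), replicates 1 to 3 from left to right. Filled circles are hearts with Y-linked reads, open circles hearts without, and lines are means. Gnb3 lies between 2.47 and 3.90 CPM in KO hearts and between 4.45 and 8.67 CPM in WT hearts.

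Gnb3 encodes a beta subunit best known from cone photoreceptors and bipolar cells of the retina. The gene (ENSMUSG00000023439) lies on GRCm38 at chr6:124834240-124840275 on the minus strand and has 10 merged exons in 4 annotated transcripts. It stood at 2.47, 3.03 and 3.90 CPM in KO replicates 1 to 3, against 8.67, 8.41 and 4.45 CPM in WT replicates 1 to 3. The groups did not overlap, but WT replicate 3 lay far nearer to the KO hearts than to the other WT hearts. The means were 3.14 ± 0.720 CPM in KO hearts and 7.18 ± 2.37 CPM in WT hearts (SD, n = 3 each), so that KO hearts held 43.7% of the WT level by the fitted model. The log2 fold change was -1.19, with a standard error (SE) of 0.31 and a 95% interval from -1.91 to -0.48. Since the gene was chosen for this difference, these values describe it and support nothing further. In bulk tissue, fewer cells that make a transcript and less transcript in each cell cannot be told apart.

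The counts behind Gnb3 were small. They were 106, 88 and 149 reads in KO replicates 1 to 3, against 274, 316 and 149 reads in WT replicates 1 to 3. KO replicate 3 and WT replicate 3 thus had the same number of reads, and their libraries differed by little in size. On CPM the exact Poisson 95% intervals of these 2 hearts, which cover counting error only, ran from 3.30 to 4.58 in KO replicate 3 and from 3.76 to 5.22 in WT replicate 3. The intervals overlapped, and the difference between these 2 hearts was not tested. With CPM on library size alone the 2 values were 4.10 in KO replicate 3 and 4.15 in WT replicate 3.

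The size of the Gnb3 difference varied with the hearts compared. Among hearts with Y-linked reads, the 1 KO heart had 2.47 CPM and the 2 WT hearts averaged 8.54 CPM, a KO level of 28.9% of WT. Among hearts without them, the 2 KO hearts averaged 3.47 CPM and the 1 WT heart had 4.45 CPM, a KO level of 78.0%. KO was lower in both comparisons, by unequal amounts, and with 1 heart on one side of each the inequality was not tested. With a term for Y-linked reads in the fit, the log2 fold change of Gnb3 was -1.07 (SE 0.35). Without KO replicate 2 and WT replicate 3, the pair that stood apart, it was -1.43. Over the 6 fits that left out 1 heart each it ran from -1.45 (without WT replicate 3) to -1.04 (without WT replicate 1).

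The genes on either side of Gnb3 had positive estimates. No annotated exon of another gene overlaps those of Gnb3. Cdca3, a cell cycle gene that ends 538 bases away on the opposite strand, had only 130 counts over the 6 hearts, and its log2 fold change was 0.71 (SE 0.62). P3h3, a collagen prolyl hydroxylase 813 bases away on the same strand, had 1521 counts and a log2 fold change of 0.52 (SE 0.34). Neither passed the test. For Cdca3 the sign rested on 1 heart: without KO replicate 1 it was -0.13.

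Of the cell types in which Gnb3 is known to be abundant, cone photoreceptors left few marker reads apart from those of Gngt2. Of 5 cone photoreceptor genes, the cone opsins Opn1sw and Opn1mw, the cone arrestin Arr3 and the cone alpha subunit Gnat2 were at 0.133 CPM or less in every heart. Only the cone gamma subunit gene Gngt2 was tested, at 7.32, 13.3 and 5.87 CPM in KO hearts and 8.86, 5.14 and 14.1 CPM in WT hearts. Gngt2 was highest in KO replicate 2 and WT replicate 3, and the groups overlapped. The 6 atrial markers summed to 127, 68.5 and 62.0 CPM in KO hearts and to 92.5, 129.7 and 85.9 CPM in WT hearts, also overlapping. The sinoatrial node markers summed to between 13.7 and 18.0 CPM in KO hearts and between 11.7 and 16.6 CPM in WT hearts, with Isl1 at 0 in all 6.

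The other 4 beta genes had 95% intervals that held 0. Over all genes tested the median absolute log2 fold change was 0.11. Gnb1, one of the main beta subunits in most tissues, stood at 104, 89.6 and 95.4 CPM in KO replicates 1 to 3, against 84.4, 88.1 and 89.0 CPM in WT replicates 1 to 3. All 3 KO hearts were above the 3 WT hearts, the nearest pair by under 1 CPM. The means were 96.5 ± 7.46 CPM in KO hearts and 87.2 ± 2.44 CPM in WT hearts (SD, n = 3 each), a log2 fold change of 0.15 (SE 0.13, 95% interval -0.15 to 0.45). Its edgeR adjusted p was 1. Gnb2, the most abundant of the 5 per length, stood at 109, 98.9 and 115 CPM in KO hearts, against 105, 104 and 97.0 CPM in WT hearts. The groups overlapped, with a log2 fold change of 0.08 (SE 0.13, 95% interval -0.23 to 0.38).

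Gnb4 and Gnb5 lay on either side of no difference. Gnb4, a sparser relative of Gnb1 and Gnb2, stood at 13.3, 10.7 and 11.0 CPM in KO hearts and at 10.3, 9.08 and 10.9 CPM in WT hearts. Only KO replicate 1 stood clear of the rest, and the log2 fold change was 0.21 (SE 0.16, 95% interval -0.16 to 0.58). Gnb5 is the divergent member of the family, which pairs with RGS proteins of the R7 group in place of a gamma subunit. It stood at 24.3, 30.3 and 23.4 CPM in KO hearts and at 29.4, 22.8 and 32.0 CPM in WT hearts, with a log2 fold change of -0.11 (SE 0.18, 95% interval -0.53 to 0.31). Both groups held high and low hearts, and KO replicate 2 and WT replicate 3 were each the highest of their group. An antisense gene, Gm19531, overlaps 7.96% of the exon bases of Gnb5, but had only 58 counts in all.

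**Figure D2:**
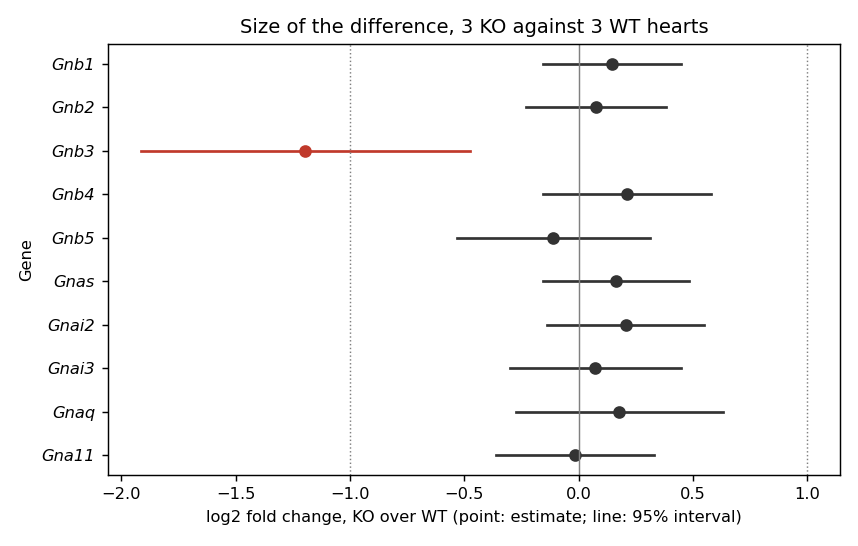
Log2 fold change, KO over WT, for each of the 10 genes (points) with its 95% interval (lines) from the fit across 14508 genes. The dotted lines mark a 2-fold difference in either direction. Gnb3 (red), selected on this difference, is at -1.19, and the intervals of the other 9 lie inside the dotted lines.

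Among the alpha genes, Gnas and Gnai2 were the most abundant, and in both the 3 KO hearts lay above the 3 WT hearts by narrow margins. Gnas encodes the stimulatory alpha subunit that turns on adenylyl cyclase. It stood at 354, 315 and 365 CPM in KO replicates 1 to 3, against 308, 302 and 314 CPM in WT replicates 1 to 3. The nearest pair was almost equal, KO replicate 2 at 315.1 CPM and WT replicate 3 at 314.0 CPM. The means were 345 ± 26.4 CPM in KO hearts and 308 ± 6.15 CPM in WT hearts (SD, n = 3 each), a log2 fold change of 0.16 (SE 0.14, 95% interval -0.16 to 0.48, edgeR adjusted p = 1). Gnas shares 13.1% of its exon bases with Gm20721, which lies on the opposite strand and had 538 counts, so its overlapping reads are uncertain since the labels do not say whether strand was used in counting.

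Gnai2 and Gnai3 encode inhibitory alpha subunits, which lower adenylyl cyclase activity. Gnai2 stood at 254, 198.41 and 218 CPM in KO hearts, against 198.35, 189 and 193 CPM in WT hearts. The lowest KO heart and the highest WT heart were almost equal. The log2 fold change was 0.21 (SE 0.15, 95% interval -0.14 to 0.55). Gnai3 stood at 22.4, 15.9 and 19.5 CPM in KO hearts and at 18.0, 17.9 and 19.0 CPM in WT hearts, so that KO held both the highest and the lowest heart. Its log2 fold change was 0.07 (SE 0.16, 95% interval -0.30 to 0.45).

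Gnaq and Gna11 encode the alpha subunits that activate phospholipase C beta. Gnaq stood at 28.2, 19.6 and 24.6 CPM in KO hearts and at 22.8, 24.0 and 17.3 CPM in WT hearts. Its log2 fold change was 0.18 (SE 0.19, 95% interval -0.28 to 0.63), the widest interval of the 9 genes not selected on their values. Gna11 stood at 66.2, 58.3 and 64.8 CPM in KO hearts and at 60.7, 73.5 and 57.2 CPM in WT hearts. With a log2 fold change of -0.02 (SE 0.15, 95% interval -0.36 to 0.33) it was the gene nearest to no difference, and its sign was not stable: it was 0.00 with library size alone and 0.04 with a term for Y-linked reads.

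The precision of the fit bounds these 9 genes. Every one of the 9 intervals lay inside a 2-fold difference, which 76.5% of all genes tested met, and 8 of the 9, all but Gnaq, lay inside a 1.5-fold difference, which 39.7% of all genes met. Estimates were positive for 7 of the 9, against 52.3% of all genes tested. Without KO replicate 2 and WT replicate 3 the 9 estimates ran from -0.14 for Gnb5 to 0.32 for Gnb4, with Gnai3 at 0.21. The separations that had KO above were the ones most exposed to scaling. With DESeq2's size factors Gnb1 and Gnas still separated and Gnai2 overlapped, and with library size alone none of these 3 did. Gnb3, selected on its lower KO values, separated under all 3 scalings, which is no support for it. With library size alone its nearest pair was 4.10 CPM in KO replicate 3 and 4.15 CPM in WT replicate 3.

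For 5 of the 10 genes, Gnb1, Gnb4, Gnai2, Gnai3 and Gnaq, the highest value was that of KO replicate 1. The same heart had the lowest Gnb3. It also held the highest value of all 5 macrophage markers, all 4 epicardial markers, 4 of 5 endothelial markers and 3 of 5 fibroblast markers. In other lists it was highest for 3 of 4 blood, 1 of 2 sinoatrial, 1 of 4 atrial and 1 of 5 smooth muscle and pericyte markers tested. It was highest for 0 of 5 heart muscle, 0 of 3 nerve, 0 of 2 lymphocyte and 0 of 1 cone markers tested. The share of all genes tested that were highest in this heart was not computed. The macrophage markers summed to 175, 63.8 and 96.0 CPM in KO hearts and to 99.4, 127 and 77.9 CPM in WT hearts. The epicardial markers (Upk3b, Msln, Wt1 and Lrrn4) summed to 25.7, 2.79 and 13.3 CPM in KO hearts and to 9.43, 4.02 and 4.45 CPM in WT hearts. The endothelial markers summed to 616, 259 and 460.3 CPM in KO hearts and to 385, 533 and 271 CPM in WT hearts. The fibroblast markers summed to 612, 333 and 508 CPM in KO hearts and to 395, 473 and 421 CPM in WT hearts. In the sums of the macrophage, epicardial, endothelial and fibroblast lists KO replicate 1 was highest and the groups overlapped. The part of these cells in the values of the subunit genes was not tested. Without KO replicate 1, the log2 fold change was 0.08 for Gnb1, 0.11 for Gnb4, 0.11 for Gnai2, 0.05 for Gnaq and -0.05 for Gnai3.

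**Figure D3:**
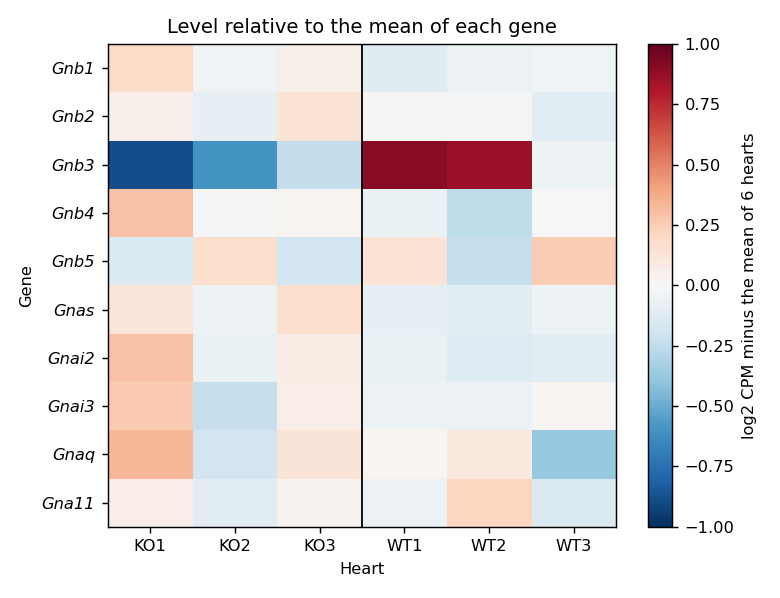
Each gene's log2 CPM in each heart minus its mean over the 6 hearts (red above, blue below), with KO hearts left of the black line and WT hearts right of it. Deviations ran from -0.88 for Gnb3 in KO replicate 1 to 0.90 for Gnb3 in WT replicate 1, and the other 9 genes stayed pale.

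Split by Y-linked reads, 7 of these 9 genes had the same sign in both. For Gnb1 the KO level was 121% of WT among hearts with such reads and 104% among hearts without. For Gnb4 it was 137% and 100.2%, and for Gnai2 131% and 108%. Gnas stood at 116% and 108% of WT, Gnb2 at 104% and 110%, Gnaq at 121% and 128%, and Gnb5 at 93.3% and 83.8%. The 2 whose sign differed were Gnai3, at 124% and 93.3%, and Gna11, at 98.7% and 108%. Each such percentage rests on 3 hearts.

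Dividing CPM by the length of the merged exons in kilobases lets levels be compared between genes. On this scale the beta genes averaged, over all 6 hearts, 30.8 for Gnb2, 21.5 for Gnb1, 8.67 for Gnb5, 1.96 for Gnb3 and 0.858 for Gnb4. The first 3 kept this order in each heart, with ranges that did not overlap. Gnb3 and Gnb4 did not keep theirs. In KO hearts Gnb3 averaged 1.19 ± 0.274 and Gnb4 0.921 ± 0.110 CPM per kilobase, while in WT hearts Gnb3 averaged 2.73 ± 0.900 and Gnb4 0.796 ± 0.0723 (SD, n = 3 each). In KO replicate 1 Gnb4 was above Gnb3. With the longest transcript as length, Gnb4 also averaged above Gnb3 over the KO hearts, at 1.86% against 1.63% of the summed beta level. The alpha genes averaged 55.2 for Gnai2, 29.2 for Gnas, 15.5 for Gna11, 5.76 for Gnai3 and 3.68 CPM per kilobase for Gnaq, in that order in each heart.

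Gnb3 was a minor part of the beta transcripts in both groups. It made up 1.42%, 1.86% and 2.24% of the summed beta level per length in KO replicates 1 to 3, against 5.13%, 5.12% and 2.72% in WT replicates 1 to 3. The summed level of the 5 beta genes averaged 64.7 ± 2.50 CPM per kilobase in KO hearts and 62.9 ± 1.13 in WT hearts, a description since it holds Gnb3. Without Gnb3 the sum was 63.5 ± 2.49 in KO hearts and 60.2 ± 0.894 in WT hearts (SD, n = 3 each), and an exact two-sided permutation test over hearts gave p = 0.2, where 0.1 is the smallest p that 3 against 3 allow. The summed alpha level was 115 ± 11.7 CPM per kilobase in KO hearts and 103 ± 1.43 in WT hearts (exact permutation p = 0.3). KO hearts spread more widely than WT hearts in both sums. The alpha difference, KO minus WT, was 11.8 CPM per kilobase with all hearts, 6.19 without KO replicate 1 and 17.9 without KO replicate 2.

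Mean shares in the beta level without Gnb3 differed most for Gnb5, by -1.72 percentage points, KO minus WT (exact permutation p = 0.4). In the alpha level they differed most for Gnai2, by 1.72 points, followed by Gna11, by -1.64 points (exact permutation p = 0.2 for Gna11). Gnb1 and Gnb2 made up 35.6% and 49.8% of the beta level without Gnb3 in KO hearts, and 33.9% and 49.8% in WT hearts (exact permutation p = 0.4 for Gnb1 and 1.0 for Gnb2). Gnas made up 26.8% of the alpha level in KO hearts and 26.6% in WT hearts, and Gnai2 51.3% and 49.5% in KO and WT hearts (exact permutation p = 0.9 for Gnas and 0.3 for Gnai2). With the longest transcript as length the Gnas share was 40.4% in KO hearts and 40.3% in WT hearts, a gene with 24 annotated transcripts. The ratio of Gnai2 to Gnai3 was 9.79, 10.8 and 9.64 in KO hearts, against 9.49, 9.10 and 8.78 in WT hearts. All KO ratios were above all WT ratios, and the exact permutation p was 0.1, the smallest possible. The ratio of Gna11 to Gnaq averaged 4.0 ± 0.473 in KO hearts and 4.55 ± 0.495 in WT hearts (exact permutation p = 0.2). These sums, shares and ratios made 14 tested comparisons, and a design of 3 against 3 cannot reach 0.05 in any of them. After Benjamini-Hochberg adjustment over the 14, the exact permutation p-values ran from 0.56 to 1.

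**Figure D4:**
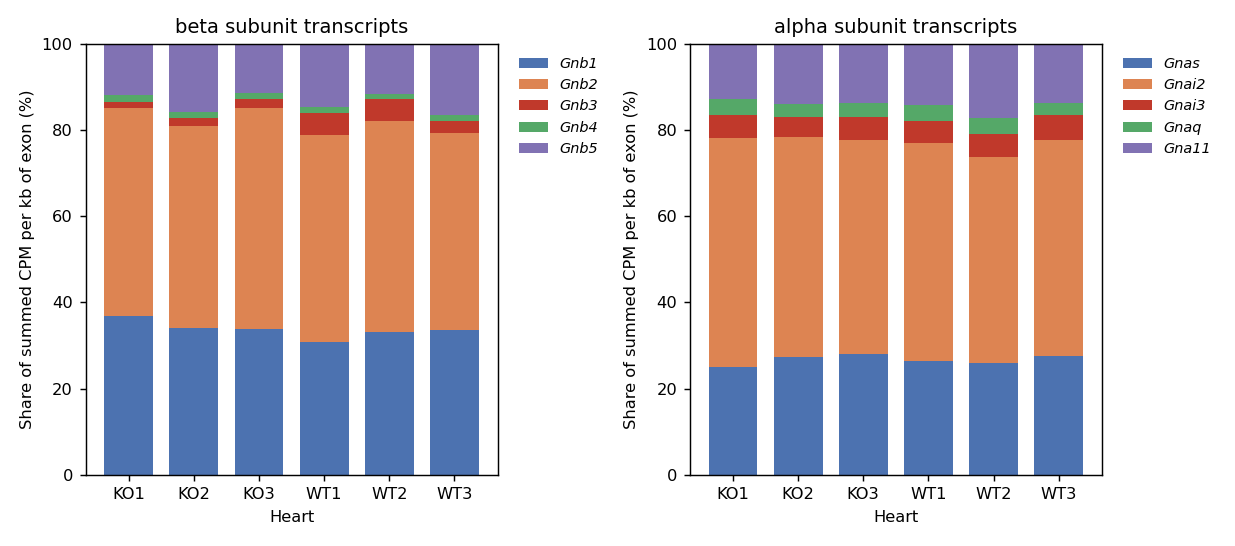
Share of each gene in the summed level per length (CPM per kilobase of merged exon, vertical axis in percent) of the 5 beta genes (left) and the 5 alpha genes (right), 1 bar per heart, KO hearts left and WT hearts right. Gnb3, the red band of the beta bars, takes 1.42% to 2.24% in KO hearts and 2.72% to 5.13% in WT hearts.

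The genes whose log2 CPM followed Gnb3 most closely over the 6 hearts were Acad9, an assembly factor of respiratory complex I (Pearson r = 0.99), Dcun1d3, a regulator of cullin neddylation (0.98), Pitpnc1, a phosphatidylinositol transfer protein (0.97), Tmem175, a lysosomal potassium channel (0.97), and Sod2, the mitochondrial superoxide dismutase (0.96). They were the top 5 of 10482 genes whose log2 CPM averaged 1 or more, with predicted, unnamed and sex-linked genes left out. The measure holds the genotype difference on which Gnb3 was selected. With each group's mean taken out, r was 0.96 for Acad9, 0.92 for Dcun1d3, 0.98 for Pitpnc1, 0.89 for Tmem175 and 0.88 for Sod2. These are descriptions over 6 libraries that also share depth and scaling, and a maximum over so many genes is high by construction. Their own differences were small: Acad9 averaged 42.2 ± 0.803 CPM in KO hearts and 46.1 ± 1.79 CPM in WT hearts, and the log2 fold changes of the 5 ran from -0.19 for Dcun1d3 to -0.09 for Sod2. Among the other 9 subunit genes the highest r was that of Gna11, at 0.28, and with group means taken out that of Gnb2, at 0.62, followed by Gna11 and Gnaq at 0.47 each.

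Around the subunits, 10 further groups of the pathway were read from lists of known members, 103 genes in all. Of these, 80 were tested, and edgeR called 0 at an adjusted p under 0.05. The estimate was positive for 50 and negative for 30, with a median log2 fold change of 0.05 against 0.01 over all genes tested. Unadjusted, 2 of the 80 were under 0.05, Gnat3 and Gpsm2. Groups that did not overlap were found for 3.75% of the 80, near the 4.07% of all genes tested. They were Grk6 and Rgs7bp with KO above and Gnat3 with KO below. These separations are those of the data as processed, and other scalings were checked for the subunit genes only. Rgs7bp, a membrane anchor of R7 group RGS proteins, is named because of that separation, seen after the values were known.

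**Figure D5:**
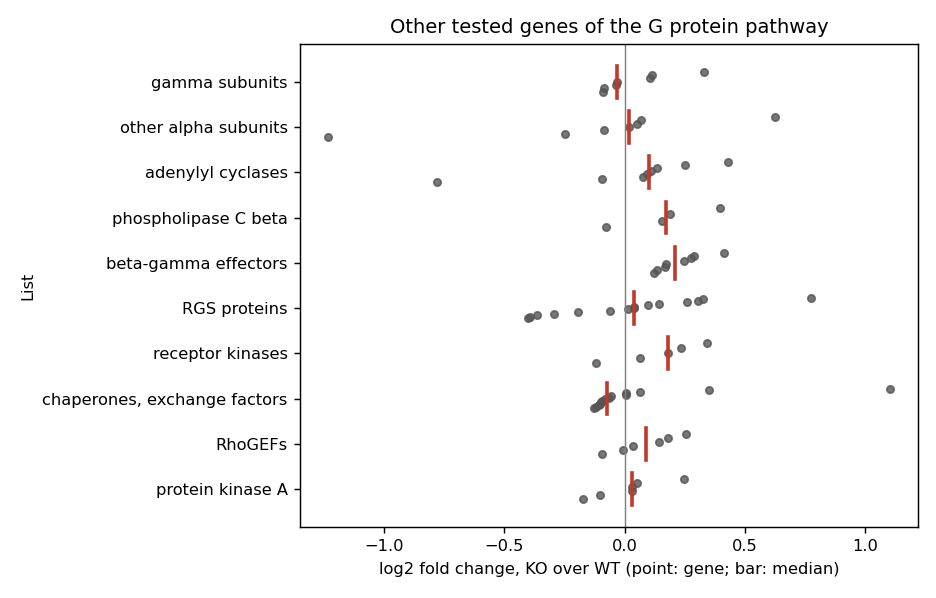
Log2 fold change, KO over WT (horizontal axis), of each tested gene of 10 groups of the G protein pathway (points) with the median of each group (red bars). Gnat3 lies farthest to the left at -1.23 and Gpsm2 farthest to the right at 1.10, and medians run from -0.07 to 0.21.

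Gamma subunits, the constant partners of beta subunits, gave 3 higher and 4 lower estimates among 7 tested of 12, with a median log2 fold change of -0.03. Gng2 had a log2 fold change of 0.33 (SE 0.28), and Gng12 one of 0.11 (SE 0.15). For Gng2 it was 0.59 without KO replicate 2 and WT replicate 3, and 0.0992 without KO replicate 1. Per length the most abundant were Gng11 and Gng5, at 33.4 and 23.8 CPM per kilobase over all hearts, named here after their levels were seen. Gng5 stood at 53.2, 85.9 and 55.8 CPM in KO hearts and at 59.0, 57.1 and 83.2 CPM in WT hearts. Its high hearts were KO replicate 2 and WT replicate 3, the pair that stood apart.

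Other alpha subunits gave 4 higher and 3 lower among 7 tested of 11. Gnat3, the taste receptor alpha subunit gustducin, stood at 0.536, 0.345 and 0.183 CPM in KO hearts, against 0.696, 0.825 and 1.01 CPM in WT hearts. KO was below WT throughout at these very low levels, and the log2 fold change was -1.23 (SE 0.42, edgeR adjusted p = 1). Gna15, an alpha subunit of the Gq class typical of blood cells, had a log2 fold change of 0.62 (SE 0.41). Without KO replicate 2 and WT replicate 3 it was 1.24 (SE 0.38) and did not pass the test there either (edgeR adjusted p = 0.686). Without KO replicate 1 the log2 fold change was 0.34 for Gna15 and -1.70 for Gnat3.

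The enzymes downstream were sampled by 3 lists. Adenylyl cyclases, the targets of Gnas and Gnai products, gave 6 higher and 2 lower among 8 tested of 10. Adcy1 stood at 4.36, 1.65 and 4.06 CPM in KO hearts and at 6.68, 7.72 and 3.01 CPM in WT hearts, with a log2 fold change of -0.78 (SE 0.45). KO replicate 2 and WT replicate 3 were the lowest of their groups, and the groups overlapped. Adcy7 had a log2 fold change of 0.43 (SE 0.31). Without KO replicate 1 the log2 fold change was 0.11 for Adcy7 and -1.01 for Adcy1. Adcy5 and Adcy6, the principal cyclases of heart muscle, had log2 fold changes of 0.09 (SE 0.14) and 0.13 (SE 0.20), and are given for that role. Phospholipase C beta genes, the targets of Gnaq and Gna11, gave 3 higher and 1 lower among 4 tested of 4, with Plcb1 at 0.40 (SE 0.26) and Plcb3 at 0.16 (SE 0.23). Protein kinase A genes gave 4 higher and 2 lower among 6, with the regulatory subunits Prkar1a at -0.10 (SE 0.16) and Prkar2b at 0.25 (SE 0.43). Prkar2b was at 0.74 without KO replicate 2 and WT replicate 3, and at -0.0449 without KO replicate 1.

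Effectors of the beta-gamma pair had positive estimates in all 8 tested of 10, against 52.3% of all genes tested. Their median log2 fold change was 0.21, and none was called. They include Kcnj3, a subunit of the potassium channel that beta-gamma opens, at 0.13 (SE 0.13), and Pik3cg, the lipid kinase that beta-gamma recruits, at 0.41 (SE 0.30). Without KO replicate 1, Kcnj3 was at 0.21 and Pik3cg at 0.08. In 5 of these 8 KO replicate 1 was the highest heart, and each of the 8 had overlapping groups. RhoGEFs gave 4 higher and 2 lower among 6, with Arhgef12 at 0.14 (SE 0.19) and Kalrn at 0.18 (SE 0.15).

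Regulators that end or shape the signal showed no common direction. RGS proteins, which speed GTP hydrolysis by alpha subunits, gave 9 higher and 6 lower among 15 tested of 23. Rgs16 had a log2 fold change of 0.77 (SE 0.43) and Rgs4 one of 0.30 (SE 0.19). Without KO replicate 1 these were 0.38 for Rgs16 and 0.0904 for Rgs4. Receptor kinases gave 4 higher and 1 lower among 5 tested of 6. Grk6 stood at 17.4, 16.2 and 16.6 CPM in KO hearts, against 14.6, 13.8 and 15.8 CPM in WT hearts, with KO above WT throughout and a log2 fold change of 0.18 (SE 0.13). Grk5, an abundant receptor kinase of the heart, had one of 0.34 (SE 0.23).

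Chaperones and exchange factors, among them the chaperonin subunits that fold beta subunits, gave 5 higher and 9 lower among 14 tested of 15, with a median log2 fold change of -0.07. Gpsm2, a regulator that holds Gi alpha subunits at the cell cortex, stood at 1.98, 0.654 and 1.39 CPM in KO hearts, against 0.538, 0.719 and 0.627 CPM in WT hearts. KO replicate 2 lay among the WT hearts, and the log2 fold change was 1.10 (SE 0.42, edgeR adjusted p = 1). Gpsm3 had one of 0.35 (SE 0.27). Without KO replicate 1 the log2 fold changes were 0.71 for Gpsm2 and 0.0572 for Gpsm3. Genes of the circadian clock, read because the labels give no collection time, gave 10 higher and 5 lower among 15 tested, with a median log2 fold change of 0.25. Their summed level was 432, 395 and 798 CPM in KO hearts and 394, 651 and 352 CPM in WT hearts, which overlapped. Nr1d2 had a log2 fold change of 0.30 (SE 0.24) and Bhlhe41 one of 0.60 (SE 0.49), and the part of collection time in any of these values was not tested.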

How the data were processed

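Per the labels' protocols, RNA was isolated with RNeasy Mini columns and libraries came from a NEBNext Ultra II kit. The authors deposited raw read counts per gene. The submitters' processing notes name STAR, featureCounts, Subread 1.5.2, DESeq2 and the build GRCm38.p6 with no role for each. The gene annotation used, strandedness and the handling of reads with several matches are not known from the sources used here. Of 49315 identifiers, 48970 matched GENCODE M21, which gave names, exons and lengths on GRCm38. Coding sequences for the identities between genes were read from the same annotation.

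Genes were kept by filterByExpr (minimum count 10, minimum total 15), scaled by TMM and tested in R 4.3.3 with edgeR 4.0.16 (quasi-likelihood F test), KO over WT with genotype alone, and adjusted over 14508 genes. The median SE was 0.23 at a biological coefficient of variation of 24.2%. CPM used TMM-scaled library sizes. Log2 CPM for likeness used a prior count of 2. Sums, shares and ratios per length were compared with exact permutation tests. The test was checked on simulated counts. DESeq2 1.42.0, limma 3.58.1 (voom), other scalings and filters, each heart left out, KO replicate 2 and WT replicate 3 left out, a replicate block and a term for Y-linked reads (over 5 CPM) were alternatives. The counts of separated groups under other scalings and the comparisons within hearts with or without Y-linked reads were added after seeing the data.

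The members and lists were chosen with earlier results of these data known. Named genes were the members, 2 genes of smallest p per pathway list, neighbours and overlapping genes, and the 5 genes most like Gnb3. Reads carry no molecular identifiers. The Poisson intervals of Gnb3 cover counting error only, while the intervals of the log2 fold changes also hold the spread between hearts.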

Additional observations from a re-analysis of the deposited data

Results flagged for a closer look

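Of 37 named genes looked at, 2 had every KO heart on opposite sides of the WT hearts in the comparison with Y-linked reads and in the comparison without. In neither was the difference tested, and each comparison has 1 heart on one side. The share of all genes tested that do the same was not computed, so the count says nothing particular about these genes. For Gna15, an alpha subunit of the Gq class, KO replicate 1 had 1.21 CPM against 0.475 and 0.399 CPM in WT replicates 1 and 2, while KO replicates 2 and 3 had 0.620 and 0.864 CPM against 0.895 CPM in WT replicate 3. The log2 ratio of KO to WT in hearts with Y-linked reads minus that in hearts without was 1.74. For Kcnj3, a potassium channel subunit, KO replicate 1 had 63.4 CPM against 63.9 and 64.0 CPM in WT replicates 1 and 2, while KO replicates 2 and 3 had 76.6 and 74.9 CPM against 68.0 CPM in WT replicate 3. The same difference of log2 ratios was -0.17.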

How the results depend on the processing

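Of the 9 genes other than Gnb3, 0 were called as processed and under each of the 16 alternatives. Of 160 alternative values of all 10 genes, 155 kept their direction. These include the values of Gnb3, selected on its direction. All are refits of the same 6 hearts or of parts of them, so most signs were bound to stay, and the share over all genes was not computed. The genes called in all numbered 1 as processed, 0 with a replicate block, 2 without KO replicate 2 and WT replicate 3, and 0 to 1 with each heart left out. Arrdc4 with the replicate block had a log2 fold change of -7.00 (edgeR adjusted p = 0.0507), and Gnb3 one of -1.16. Libraries with the same replicate number did not deviate together (r = 0.18, -0.65 and -0.40 for numbers 1 to 3), and no KO library correlated best with its own number. With 3 libraries per group this check cannot exclude a litter or preparation shared by number, and the labels name none. The members whose groups did not overlap, Gnb3 included, numbered 4 as processed, 3 with DESeq2's size factors and 1 with library size alone. Signs turned for Gna11, at 0.00 (0.00114) with library size alone and 0.0432 with a term for Y-linked reads, and for Gm20721, at -0.0207 with that term. With each heart left out, log2 fold changes ran from -0.0883 to 0.0945 for Gna11, from -0.0486 to 0.19 for Gnai3, from -0.0449 to 0.56 for Prkar2b, from -0.13 to 1.09 for Cdca3, from -0.0232 to 0.33 for Plcb3 and from -0.16 to 0.00 for Prkar1a (0.00285 at most). The causes were not tested. Genes under an unadjusted p of 0.05 numbered 179 as processed and from 72 (replicate block) to 1126 (without KO replicate 2) under the alternatives. KO minus WT in CPM per kilobase was 3.25 for the beta sum without Gnb3 and 11.8 for the alpha sum, and 5.19 and 23.4 with the longest transcript as length. With each heart left out these ran from 2.37 to 4.68 for beta and from 6.19 to 17.9 for alpha. Over the alternatives the edgeR, DESeq2 or voom adjusted p of the 9 genes other than Gnb3 ran from 0.613 to 1.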
